A study of Mus musculus and Homo sapiens with 22 samples.

Results

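PROX1 occupied 10178 promoters in mouse embryonic fibroblasts (MEFs) at positions where no liver peak was called, out of 40531 MEF peaks and 105059 peaks over the 3 lists of the series. These regions are referred to here as fibroblast-only promoter peaks. They were chosen by measured values: a MEF peak was taken when an annotated transcription start site (TSS) lay no more than 1 kb from its summit and the peak overlapped no liver peak by even 1 bp. Of 15339 MEF promoter peaks, the remaining 5161 overlapped a liver peak and are called shared promoter peaks, the comparison class for everything below.

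PROX1 is a homeobox transcription factor needed for hepatocyte development and for lymphatic endothelium, and it is best known in liver as a repressor that works with histone deacetylases. Promoters are the stretches around start sites where the transcription machinery assembles, and many of them lie in CpG islands, DNA that keeps an unusual density of CG dinucleotides and is open in most cell types. CUT&RUN maps a protein by tethering a nuclease to it with an antibody and sequencing the fragments that the nuclease releases.

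CUT&RUN was performed on 22 samples in 6 groups. The MEFs came from wild-type C57BL/6N embryos at E13.5, carried lentiviral rtTA and tetO-FLAG-mmProx1 and received doxycycline for 2 days, after which a FLAG antibody was used in 3 samples and IgG in 3. The liver groups were untreated wild-type C57BL/6J mice of 2 to 3 months, with an antibody to PROX1 itself in 5 samples and IgG in 5. Hep3B, an established line from a human hepatocellular carcinoma, carried an inducible human PROX1 (pLIX-Puro-hsPROX1) and was likewise induced for 2 days before FLAG (3 samples) or IgG (3 samples). In the MEFs and Hep3B the bound factor was therefore a tagged, overexpressed protein driven by a viral vector, and the MEFs are primary cells from the distal limbs of several embryos. Tissue, antibody and origin of the factor changed together between liver and MEFs and cannot be told apart. No RNA was measured in this series, so the cell type labels were not checked against marker expression. Each deposited list pools the antibody samples of a group, so neither a spread between replicates nor a depth per sample can be given, and each p-value describes peaks or genes in the lists, not animals or cultures. Intervals are 95% intervals for counting error alone, and neighbouring peaks or genes are not independent. The liver list begins at a peak area of 500 and the MEF list at 200, where the area sums the significance over a peak. A region can therefore be absent from the liver list through weak signal as well as no signal.

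Summit sequences of 6 fibroblast-only promoter peaks are shown as examples of strong peaks, not as typical of the set. They are those of the 3 strongest peaks (at Hspa2, Izumo4 and Osbpl2). The others are the strongest peaks at a mesenchymal transcription factor (Foxc1), an extracellular matrix gene (Hspg2) and a neuronal fate regulator (Sox11). All are the plus strand of mm10, 5′ to 3′. Capitals mark exact matches, on either strand, to the motifs tested below, among them the GC box GGGCGG and the CCAAT box (ATTGG on the opposite strand). Exonic untranslated bases were left out, so the Hspa2 stretch starts 2 bp beyond the summit and the Foxc1 stretch ends 89 bp before it.
Hspa2, chr12:76404290-76404408: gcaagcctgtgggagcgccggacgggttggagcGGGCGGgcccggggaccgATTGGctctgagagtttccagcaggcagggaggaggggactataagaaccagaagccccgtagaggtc
Izumo4, chr10:80702143-80702343: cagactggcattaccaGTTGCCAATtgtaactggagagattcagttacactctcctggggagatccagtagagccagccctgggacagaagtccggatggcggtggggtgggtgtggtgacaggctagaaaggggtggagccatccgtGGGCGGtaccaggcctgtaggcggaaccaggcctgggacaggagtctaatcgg
Osbpl2, chr2:180119011-180119211: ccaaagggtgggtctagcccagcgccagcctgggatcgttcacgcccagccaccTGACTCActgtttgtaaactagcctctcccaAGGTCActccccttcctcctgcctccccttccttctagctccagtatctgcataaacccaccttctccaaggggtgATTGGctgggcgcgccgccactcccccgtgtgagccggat
Foxc1, chr13:31806432-31806632: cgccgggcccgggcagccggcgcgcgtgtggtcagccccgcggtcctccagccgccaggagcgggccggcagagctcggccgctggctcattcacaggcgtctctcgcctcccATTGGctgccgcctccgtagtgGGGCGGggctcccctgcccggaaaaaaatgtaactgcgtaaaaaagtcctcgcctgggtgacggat
Hspg2, chr4:137468523-137468723: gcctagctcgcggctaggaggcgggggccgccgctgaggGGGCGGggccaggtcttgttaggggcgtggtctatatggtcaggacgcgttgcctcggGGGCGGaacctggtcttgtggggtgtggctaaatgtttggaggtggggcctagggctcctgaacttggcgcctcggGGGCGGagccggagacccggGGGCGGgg
Sox11, chr12:27342743-27342943: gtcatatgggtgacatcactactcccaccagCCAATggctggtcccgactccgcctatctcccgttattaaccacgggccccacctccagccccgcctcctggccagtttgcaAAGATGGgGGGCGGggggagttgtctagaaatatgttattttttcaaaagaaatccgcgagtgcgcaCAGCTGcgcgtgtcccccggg

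A CCAAT box was present in each of these stretches except that of Hspg2, which had 4 GC boxes, and a GC box in each except that of Osbpl2. In Izumo4 the RFX half-site GTTGCCA and a CCAAT box overlapped in the run GTTGCCAAT. The Osbpl2 stretch held an AP-1 site, TGACTCA, and a nuclear receptor half-site, AGGTCA, and the Sox11 stretch held the E-box CAGCTG. None held a full PROX1 palindrome. These matches describe letters only. Over the whole class, a CCAAT box lay within 100 bp of the summit in 29.0% of peaks and a GC box in 46.7%.

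The strongest fibroblast-only promoter peaks belonged to broadly used genes as well as tissue-restricted ones. Strength is given as the summit −log10 p of the authors' peak caller. The highest value, 12.1, lay at Hspa2, a testis-enriched HSP70 chaperone, in a peak of 1665 bp whose summit was 112 bp downstream of the start site. The next peaks stood at 11.8 over Izumo4 and Mob3a, which share the region, and at 11.8 over Osbpl2, an oxysterol-binding protein. Ephb3, an ephrin receptor, followed at 11.6 with its summit at −167 bp from the start site. The other 6 of the top 10 lay at Otud4 (a deubiquitinase), Aktip, Cnnm2 (a magnesium transporter), Man1c1 (a mannosidase), Ogg1 (the glycosylase that removes oxidized guanine) and Ppp2r3a (a phosphatase 2A subunit), down to 11.3. Gaps from these 10 to the nearest liver peak ran from 4071 bp at Cnnm2 to 216478 bp at Ephb3. All 10 genes also had a promoter peak in Hep3B. So did 48.8% of all genes with the same symbol in mouse and human. In the strongest quartile of fibroblast-only promoter peaks the share was 79.1%. The widest of the set were found at Tnfrsf12a, the TWEAK receptor (4611 bp), Ssbp4 (4322 bp) and Gpr153 (3985 bp).

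Over all 10178 regions, the median strength was 6.20 (interquartile range 5.17 to 7.41; full range 3.34 to 12.1) and the median width 839 bp (580 to 1190 bp). Shared promoter peaks had a median strength of 7.19 and a median width of 1115 bp. Strength and width enter the chance that a peak touches a liver peak, so these differences are given without a test. When all MEF promoter peaks were ordered by strength, the fibroblast-only class made up 79.5% of the weakest quartile, 72.9% and 62.7% of the quartiles between and 50.3% of the strongest quartile. The liver list started at higher values than the MEF list. Of the fibroblast-only promoter peaks, 6113 (60.1%) had an area at or above the lowest of the liver list, 5363 (52.7%) a summit −log10 p and 1433 (14.1%) a summit −log10 q at or above it.

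Most of these promoters were far from any liver peak. The median gap was 24617 bp (interquartile range 6700 to 66321 bp), 3239 regions (31.8%) lay more than 50 kb away, and 878 (8.63%) lay within 1 kb. At the edge of the rule, the Tmem106b peak abutted a liver peak without overlap and the Lcmt2 peak was 1 bp from one, whereas the peaks at Cenpl and Hdgf overlapped one by 2 bp and were counted as shared. At the other threshold, summits 1000 bp from the start site of Bcl9l and 999 bp from that of Mlph were kept, and those 1001 bp from Mamdc2 and Gm37284 were not. By chromosome, the fibroblast-only class made up 59.7% (chromosome 19) to 75.1% (X) of MEF promoter peaks.

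Summits of fibroblast-only promoter peaks hugged the start site, though less tightly than those of shared peaks. The median distance was 110 bp (interquartile range 41 to 340 bp) against 91 bp (34 to 209 bp). Summits within 100 bp of a start site made up 47.5% of the fibroblast-only class and 53.1% of the shared class, and those beyond 500 bp 17.0% and 10.3%. Upstream positions were the more common in both classes (61.0% and 66.7%). Start sites of different protein-coding genes on opposite strands lay within 1 kb of the summit at 7.05% of fibroblast-only and 9.15% of shared peaks. Whether the genes pointed away from each other was not checked. By annotation, 33.0% of fibroblast-only summits fell upstream of or between genes, 30.4% in introns, 20.4% in 5′ untranslated exons, 9.28% in exons of non-coding transcripts, 6.09% in coding exons and 0.845% in 3′ untranslated exons. Position relative to the start site was limited by the rule and was not tested.

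**Figure D1:**
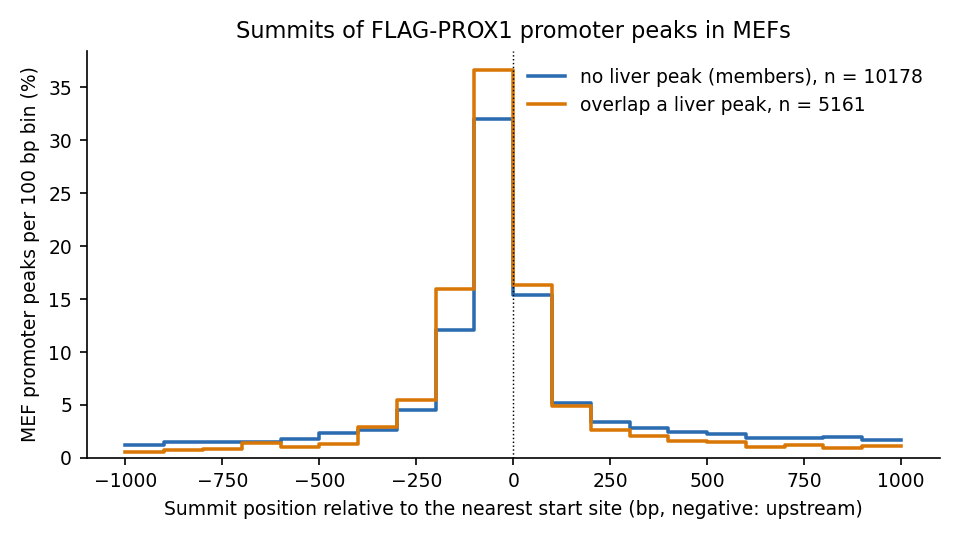
Position of the summit relative to the nearest start site (x axis, bp, negative values upstream) as a share of each class of MEF promoter peak per 100 bp bin (y axis, %). Both the 10178 fibroblast-only peaks (blue) and the 5161 shared peaks (orange) pile up just upstream of the start site, and the blue line is lower at the peak and higher in the flanks.

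Fibroblast-only promoter peaks were less often CpG-rich than shared promoter peaks. A window reaching 250 bp to each side of the summit was called CpG-rich when it had at least 55% GC and a ratio of observed to expected CpG of at least 0.65. By this measure 5290 fibroblast-only promoter peaks (52.0%, interval 51 to 52.9) and 3165 shared ones (61.3%, 60.0 to 62.6) were CpG-rich, an odds ratio of 0.683 (0.638 to 0.731; two-sided Fisher's exact p = 2.98e-28). For scale, 40.5% of windows at annotated protein-coding start sites, 2.22% of MEF peaks away from promoters and 2.54% of the 4717 liver promoter peaks without a MEF peak met the definition. Median GC content was 60.1% in the fibroblast-only class and 61.1% in the shared class, beside 47.5% in the liver-only promoter peaks. Summit strength moved with this contrast: within 10 strata of strength, a setting added after seeing the data, the odds ratio was 0.890 (Mantel-Haenszel chi-square p = 0.00176).

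A larger part of the fibroblast-only class sat at the start sites of non-coding genes alone. No start site of a protein-coding gene lay within 1 kb of 1026 summits (10.1%), against 337 (6.53%) in the shared class (odds ratio 1.60, 1.41 to 1.82; two-sided Fisher's exact p = 1.00e-13). Among these 1026 regions, 375 had a lincRNA start site, 163 an antisense transcript, 111 a processed pseudogene and 61 a microRNA gene within 1 kb, and a region can hold several kinds. The odds ratio was 1.36 within strata of GC content and 1.31 within strata of summit strength.

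Motifs of several factors known from CpG-rich promoters were less frequent in the fibroblast-only class. Of 21 motifs searched within 100 bp of the summit on both strands, 8 were less frequent and 3 more frequent than in shared promoter peaks (two-sided Fisher's exact test, Benjamini-Hochberg adjusted over the 21). The GC box, bound by SP and KLF factors, occurred in 46.7% of fibroblast-only and 56.5% of shared windows (odds ratio 0.674, Fisher's adjusted p = 2.41e-29), beside 37.4% of all protein-coding start sites. ZNF143 sites (ACTACAA) occurred in 2.25% and 4.28% (odds ratio 0.515, Fisher's adjusted p = 5.35e-11), and NRF1 sites (GCATGCGC) in 2.58% and 4.55% (0.556, Fisher's adjusted p = 1.11e-09). The core letters of HNF4, the nuclear receptor at the centre of hepatocyte identity (CAAAGTCC), were rare in both, at 0.570% and 1.20% (0.471, Fisher's adjusted p = 2.01e-04). They reached 4.41% in liver-only promoter peaks. E2F sites (GGCGGGAA, 2.31% and 3.08%) and ETS sites (CGGAAG, 18% and 20.7%) were also less frequent, with odds ratios of 0.744 and 0.840. Within strata of summit strength the ETS ratio was 1.00, the E2F call was lost (0.845) and the GC box ratio was 0.897. The E2F call was also lost within GC strata (0.797), with windows of 50 bp to each side of the summit (0.732), with a MEF area of at least 500 (0.813), with q below 0.001 (0.791) and when sharing required summits within 100 bp (0.864). The ETS call was lost with a promoter window of 500 bp (0.915) and with protein-coding start sites only (0.920), and the HNF4 call when sharing required summits within 100 bp (0.585).

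Motifs that were more frequent in the fibroblast-only class than in shared promoter peaks were the RFX half-site, the AP-1 site and an E-box. The RFX half-site, read by the factors that run cilium genes, was present in 3.55% of fibroblast-only and 2.48% of shared windows (odds ratio 1.45, Fisher's adjusted p = 8.25e-04), and the ratio was 1.41 within strength strata. That call was lost with windows of 50 bp to each side of the summit (1.33), with q below 0.001 (1.27) and when sharing required summits within 100 bp (1.38). The AP-1 site TGANTCA, bound by FOS and JUN, was present in 5.77% and 4.32% (1.36, Fisher's adjusted p = 3.94e-04), far below the 20.4% of MEF peaks away from promoters. The E-box CAGCTG was present in 12.8% and 11.2% (1.17, Fisher's adjusted p = 0.00902), and its fibroblast-only share was near the 12.5% of all protein-coding start sites. Those start sites held the RFX half-site at 2.56% and the AP-1 site at 4.04%. MEF peaks away from promoters held the RFX half-site at 3.85% and the E-box at 16.2%. With protein-coding start sites only the AP-1 ratio was 1.05, and with a MEF area of at least 500 it was 1.10, both without a call. Its call was lost within strata of GC content (1.19, chi-square adjusted p = 0.0743) and of strength (1.16, adjusted p = 0.159), and the E-box call within strata of strength (1.09, adjusted p = 0.179) and when sharing required summits within 100 bp (1.11, Fisher's adjusted p = 0.252). CCAAT boxes, bound by NF-Y, were present in 29.0% and 30.5% (0.932, Fisher's adjusted p = 0.102; interval 0.866 to 1.00). Within GC strata this ratio was called lower, at 0.911 (chi-square adjusted p = 0.0302), as it was with a promoter window of 2000 bp (0.925, Fisher's adjusted p = 0.0413). Within strength strata, a setting added after seeing the data, the CCAAT ratio turned to 1.22 (chi-square adjusted p = 1.54e-05), a call in the other direction.

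**Figure D2:**
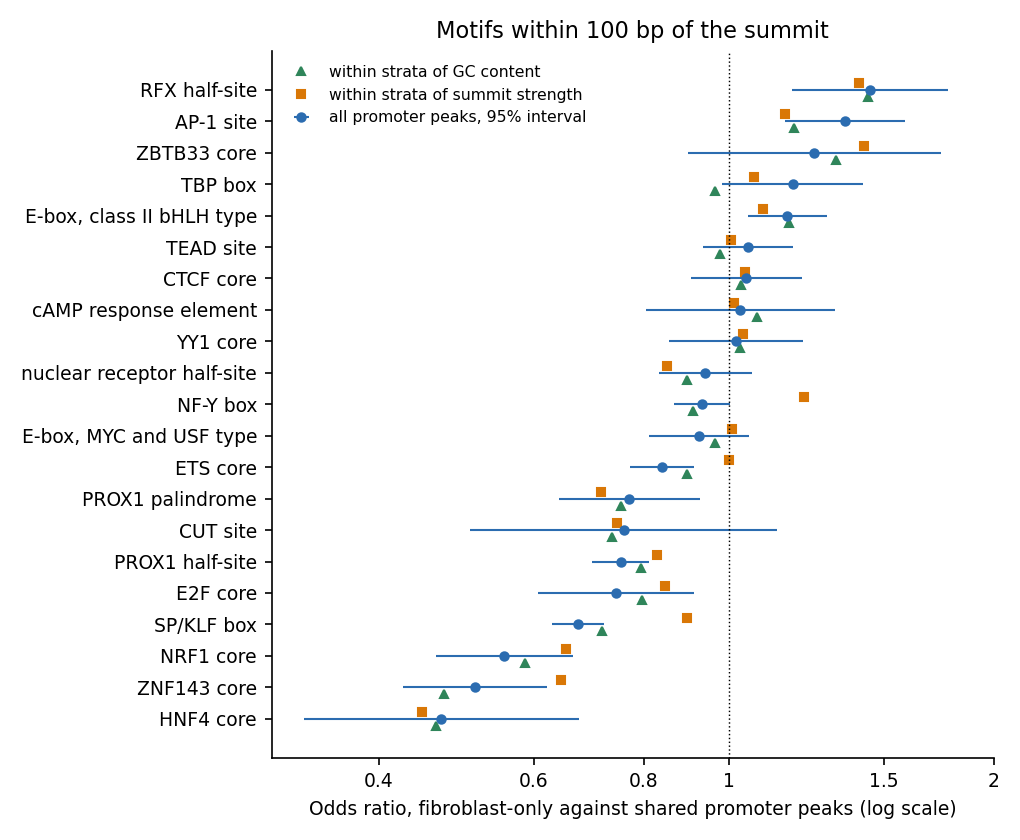
Odds ratio for each of the 21 motifs within 100 bp of the summit, fibroblast-only against shared promoter peaks (x axis, log scale; bars, 95% intervals), with the ratio within strata of GC content (triangles) and of summit strength (squares). SP/KLF box, NF-Y box and the E-box of class II bHLH type are the GC box, the CCAAT box and the CAGCTG E-box; HNF4, ZNF143 and NRF1 lie farthest to the left and the RFX half-site farthest to the right, and the NF-Y box changes side within strength strata.

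PROX1's own recognition letters were less common here than in shared promoter peaks. Its palindromic consensus, allowing up to 2 mismatches, was found in 296 fibroblast-only windows (2.91%, 2.60 to 3.25) and 193 shared windows (3.74%, 3.26 to 4.29), an odds ratio of 0.771 (Fisher's adjusted p = 0.0122). Windows at all protein-coding start sites held it at 3.79% and liver-only promoter peaks at 4.88%. The half-site AAGNCG was present in 24.7% and 30.3% (0.754, Fisher's adjusted p = 1.75e-12), against 23.7% of all protein-coding start sites. Within 10 strata of summit strength the palindrome ratio was 0.715, and in windows of 50 bp to each side its call was lost (0.796). With at most 1 mismatch, 17 fibroblast-only windows (0.167%) held a palindrome. The only exact match lay at −58 bp from the summit at Rpl7a, a ribosomal protein gene. Outside chromosomes 8 and 18, which were left out of this ranking, the strongest peaks with 1 mismatch were those at Nsmce1, a subunit of the SMC5/6 complex, and Foxc1. The 30 bp sites of these 3 peaks are shown because they are among the closest matches in the class, with the palindrome in capitals (plus strand, mm10).
Rpl7a, chr2:26911148-26911177: tcacaagggCAAGGCGCCTTGacgggcaat
Nsmce1, chr7:125491551-125491580: ctctgttgcTATGGCGCCTTGgcacctgtg
Foxc1, chr13:31806801-31806830: agtggcgagCAGGGCGCCTTAtttttttta

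Short words of sequence were also counted without preset motifs. Of 2080 6-mers counted within 25 bp of the summit, 11 (0.529%) were more frequent and 17 (0.817%) less frequent in the fibroblast-only class at an adjusted p below 0.05. Of the less frequent words in at least 200 windows, CATGCG (odds ratio 0.580) and ATGCGC (0.614) are pieces of the NRF1 site. GACTAC (0.599) shares letters with the ZNF143 site, CCGCCC (0.732) is the reverse complement of the GC box, and ACTCCG stood at 0.649. Of the more frequent words, AAATAC (2.32), CCATAG (1.99) and AGTGAA (1.86) had the highest ratios but stood in fewer than 200 windows each. CAGATG (1.63), which is an E-box, CTGTGA (1.59), TCAGCA (1.53), ACTCAG (1.5) and CAGTGA (1.49) followed. Within GC strata 7 words were more and 8 less frequent, and 5 of the 28 called words were called in both analyses. These were CATGCG (0.604 within GC strata), ATGCGC (0.645), GACTAC (0.535) and GCGTAA (0.360), and, as the only more frequent one, CAGCAG (1.33, and 1.34 within GC strata). CCGCCC (0.883 within GC strata), ACTCCG (0.701) and the other named words lost their call there.

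Among the fibroblast-only promoters themselves, sequence changed steeply with peak strength. From the weakest to the strongest quartile, CpG-rich windows went from 35.5% to 69.0%, GC boxes from 30.8% to 66.4%, CCAAT boxes from 18.9% to 44.8% and ETS sites from 8.57% to 25.4%. AP-1 sites went the other way, from 6.84% to 3.30%, as did the CAGCTG E-box, from 14.2% to 11.9%, and the PROX1 palindrome, from 3.97% to 2.36%, while the PROX1 half-site went from 19.9% to 29.4%. The strongest quartile also lay closer to start sites (median distance 74 bp against 262 bp) and held fewer promoters of non-coding genes alone (5.50% against 13.1%). The parts of distance, base composition and strength in these shares were not tested.

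**Figure D3:**
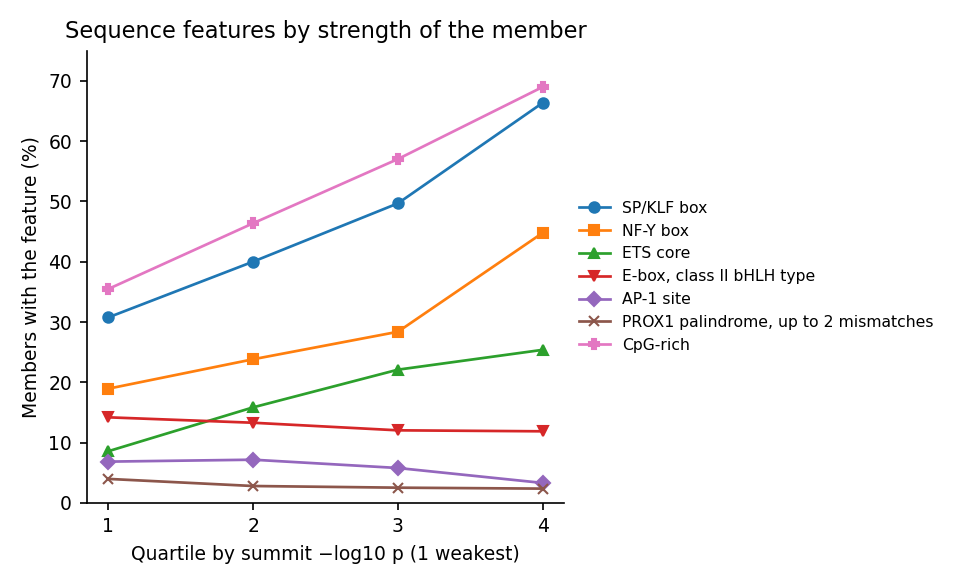
Share of fibroblast-only promoter peaks with each sequence feature (y axis, %) by quartile of summit −log10 p (x axis, 1 weakest to 4 strongest; 2544 or 2545 peaks each). The CpG-rich, SP/KLF, NF-Y and ETS lines climb with strength, and the AP-1, E-box and PROX1 palindrome lines decline.

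Assigned to genes, fibroblast-only promoter peaks touched 7952 of 21842 protein-coding genes (36.4%), beside 12086 (55.3%) with any MEF promoter peak and 5818 (26.6%) with a liver promoter peak. Of the 7952, 7337 had no shared peak and 885 had a liver promoter peak at another position. A lone fibroblast-only peak was found at 6914 genes, 912 genes had 2 and 126 had 3 or more. Plec, which encodes the cytolinker plectin from 15 annotated start positions, and Zfp516 had 6 each. Bdnf, a neurotrophin gene with many alternative first exons, Abr, Rgmb and Trmt1 had 5 each. In the following, the share of each gene list is read beside the 36.4% of all genes. Among the 12086 genes with any MEF promoter peak, 65.8% had a fibroblast-only one, and a list bound throughout in MEFs can exceed the first share without exceeding the second. The lists were written from general knowledge with results of these data known, and no test was made on them.

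Transcription factors of mesenchymal fate were the list most often reached at the reported setting, ahead of cell cycle genes at 80.0%. Of 30 such genes, 25 (83.3%) had at least 1 fibroblast-only promoter peak, in 34 distinct peaks, and only Snai2 had a liver promoter peak. The strongest lay at Foxc1, a forkhead regulator of cranial mesenchyme and somites (8.94), Tbx15 (8.01), Runx1 (7.93) and Foxc2 (7.75). Factors of epithelial-mesenchymal transition were covered as well: Snai1 stood at 7.16, Twist1 at 7.08, Zeb1 at 6.65, Zeb2 at 6.57 and Twist2 at 5.65. Prrx1, a stromal master regulator, had a peak of strength 6.62 with its summit at −901 bp from the start site, near the limit of the promoter window. Foxd1, Meox1, Meox2 and Tcf21 had no MEF promoter peak. Of the list's genes with any MEF promoter peak, 96.2% had a fibroblast-only one. With q below 0.001, a setting added after seeing the data, 16 of the 30 genes were reached. At that setting cell cycle genes stood at 32 of 50 and ciliary transport and BBSome genes at 12 of 22, so the first rank was not kept.

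Genes of the extracellular matrix followed a similar pattern. Fibroblast-only promoter peaks were found at 25 of 36 (69.4%), and a liver promoter peak at 3. Hspg2, which encodes perlecan, stood highest at 9.24, followed by the laminin chain gene Lamc1 (8.88), the collagen chaperone gene Serpinh1 (7.93) and the crosslinking enzyme gene Loxl1 (7.36). The weakest of the list, at Dcn (decorin), was 3.64. With q below 0.001 the matrix count fell from 25 to 12. Collagen genes were at the level of all genes, with 16 of 44 (36.4%), and at 4 with q below 0.001. They included Col1a1, the main chain of fibrillar collagen (8.86, in a peak of 3774 bp), Col5a1 (8.56), Col7a1 (6.36) and Col6a2 (6.33). Among 40 genes of the actin cytoskeleton and serum response, 23 (57.5%) had one, led by Fosb (9.66), Srf (9.38), the transcription factor of that response, Actn1 (9.10) and Cfl1 (8.66). In contrast to the mesenchymal factors, 18 of these 40 also had a liver promoter peak. Among genes with any MEF promoter peak the fibroblast-only share was 89.3% for matrix genes, 88.9% for collagens and 65.7% for the actin and serum response list.

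Hox genes, which set position along the body and limb axes, were reached in fibroblasts and not in liver. Of 39, 25 (64.1%) had a fibroblast-only promoter peak and 0 a liver promoter peak. These 25 were all the Hox genes with any MEF promoter peak. They covered 10 of 11 genes of the Hoxa cluster and 8 of 9 of Hoxd, but 3 of 10 of Hoxb and 4 of 9 of Hoxc. Among the strongest were Hoxa9 (8.88), Hoxd13 (8.46) and Hoxa10 (8.03). Hox start sites lie close together, and 31 distinct peaks stood behind the 25 genes. With q below 0.001 the count fell from 25 to 9.

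Regulators of other lineages were bound less evenly. Neuronal fate regulators had fibroblast-only promoter peaks at 18 of 36 genes (50.0%) and a liver promoter peak at 1. Sox11 (9.33), Pou3f1 (8.77), Sox4 (7.78) and Lhx3 (7.66) were strongest, and Pax6 (5.63), Sox2 (5.80) and Rest (6.39), a repressor of neuronal genes, were weaker. The proneural genes Neurod1 and Neurog2 had no MEF promoter peak, whereas Neurog1 had one of 4.34. Of 28 skeletal and heart muscle regulators, 11 (39.3%) were reached, near the 36.4% of all genes, with Eya1 (7.36), Mef2b (7.03), Six4 (6.17) and Tbx5 (6.05) at the top. The median over the strongest peak of each gene was 5.21, where the 6.20 of the whole class is taken over all peaks. Myod1, Myog, Myf5 and Hand2 had no MEF promoter peak. With q below 0.001 the neuronal count fell from 18 to 8 and the muscle count from 11 to 2. Adipocyte regulators stood at 7 of 21 (33.3%), led by Srebf1 (10.4), Klf5 (9.34), Ppargc1a (7.93) and Zfp521 (6.70), and Srebf1 and Ppargc1a had a shared promoter peak as well. Here 12 genes, Pparg among them, had shared promoter peaks only. None of the 35 annotated hepatocyte identity genes had a fibroblast-only promoter peak, and 1 had one with a promoter window of 2000 bp. Every one of them had a liver promoter peak. In the 8 with a MEF promoter peak, among them Foxa1, Foxa2, Foxa3 and Cebpa, that peak overlapped a liver peak. The rule leaves out MEF peaks that overlap a liver peak, so the absence of these genes is in part set by the choice of regions.

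**Figure D4:**
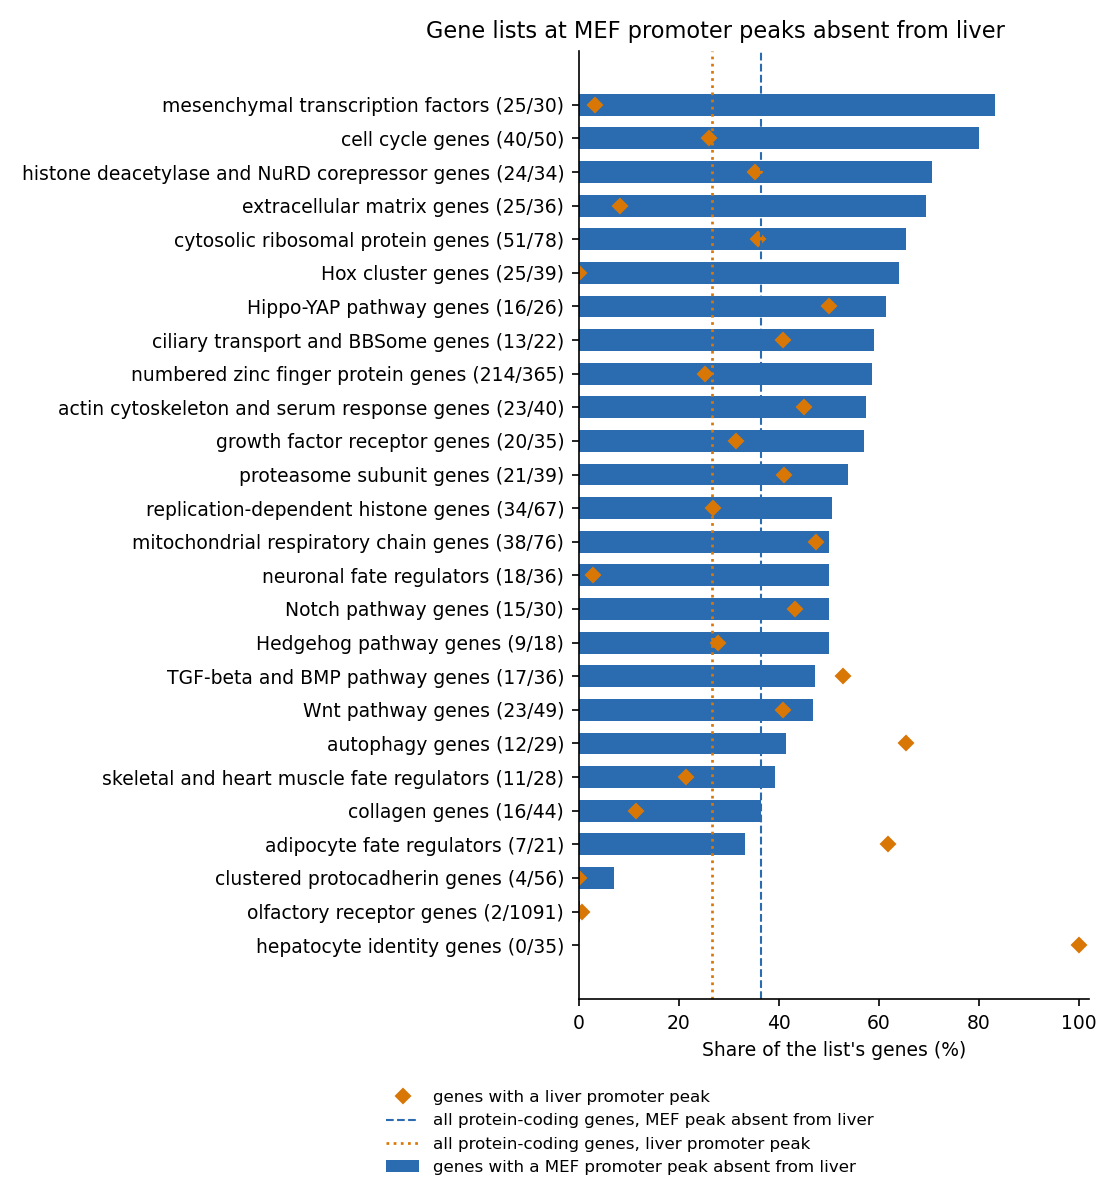
Share of each list's genes with a fibroblast-only promoter peak (bars, %; counts in parentheses) and with a liver promoter peak (diamonds), beside all protein-coding genes (36.4%, dashed; 26.6%, dotted). Mesenchymal transcription factors are at the top at 83.3% with a liver share of 3.33%, and hepatocyte identity genes at the bottom at 0 with a liver share of 100%. The rule leaves out MEF peaks that overlap a liver peak, so bars and diamonds are not independent.

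All 50 genes of the cell cycle list had a MEF promoter peak and 40 (80.0%) a fibroblast-only one, against 13 with a liver promoter peak. Cdc25c, the phosphatase that admits cells to mitosis, stood at 10.3, the replication licensing genes Mcm4 and Cdc6 at 9.26 and 9.03, and Cdk1, the mitotic kinase, at 9.0. E2f1 (8.98), Ccne1 (8.79), Pcna (8.43) and Ccnb1 (8.38) had fibroblast-only promoter peaks too. The median over the strongest fibroblast-only promoter peak of each gene was 7.57. It is not directly comparable to the 6.20 of the class, which is taken over all peaks. Replication-dependent histone genes were reached at 34 of 67 (50.7%), with Hist1h2bh and Hist1h3f under 1 peak of 7.80, and Hist2h2bb and Hist2h3b under another of 7.65. Of the histone genes with any MEF promoter peak, 72.3% had a fibroblast-only one, beside 65.8% of all such genes.

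Housekeeping families were bound in MEFs almost throughout and were split between the classes. Of 78 cytosolic ribosomal protein genes, 76 had a MEF promoter peak and 51 (65.4%) a fibroblast-only one, with Rpl37 (9.85), Rpl18 (8.79) and Rps25 (8.72) among the strongest. Of 76 respiratory chain genes, 72 had a MEF promoter peak and 38 (50.0%) a fibroblast-only one, led by Sdhb (11), Ndufb5 (9.50), Cox6a1 (9.47) and Ndufa11 (9.22). Proteasome subunits stood at 21 of 39, with Psmd14 (8.05), Psmd7 (8.02), Psmc3 (7.75) and Psmb1 (7.63) first. Ciliary transport and BBSome genes stood at 13 of 22, led by Ift80 (9.39), Ift140 (9.20), Ift57 (8.84) and Bbs12 (8.57). Autophagy genes, 12 of 29 (41.4%), were near the background, and 19 of 29 had a liver promoter peak. The strongest were Atg9a (10.5), Ulk1 (9.38), Gabarap (7.65) and Atg2a (7.64). Among genes with any MEF promoter peak, the fibroblast-only share was 67.1% for ribosomal protein, 52.8% for respiratory chain, 56.8% for proteasome, 59.1% for ciliary and 42.9% for autophagy genes, beside the 65.8% of all such genes. Numbered zinc finger protein genes had fibroblast-only promoter peaks at 214 of 365 (58.6%), with Zfp438 (11) and Zfp319, Zfp654 and Zfp687 (10.5 each) highest. Of 34 histone deacetylase and NuRD corepressor genes, 24 (70.6%) were reached, among them Mbd3 (10.4), Hdac1 (8.67), Rbbp4 (8.27) and Hdac10 (8.15). Gene families that are silent in most tissues were nearly absent, with 2 of 1091 olfactory receptor genes (Olfr15 at 5.80 and Olfr94 at 5.31) and 4 of 56 clustered protocadherin genes (Pcdhgc3 at 7.52, Pcdhgc4 at 6.38, Pcdhga12 at 5.77 and Pcdhac2 at 4.94).

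Signalling pathways were reached at 46.9% to 61.5% of their genes. Among their genes with any MEF promoter peak the share was 53.1% for TGF-beta and BMP, 57.5% for Wnt, 62.5% for Notch, 66.7% for Hippo-YAP and 69.0% for growth factor receptors, beside 65.8% of all such genes, and for Hedgehog it was 9 of 10. Hippo-YAP components, which relay cell density to growth, had fibroblast-only promoter peaks at 16 of 26 (61.5%): the kinase gene Stk3 stood at 9.17, Frmd6 at 9.05, Vgll3 at 8.34 and the DNA-binding partner Tead4 at 7.82. Notch components stood at 15 of 30, with the receptor Notch1 (9.02), the secretase subunit Psenen (8.91) and the targets Hey1 (8.82) and Hey2 (8.61) strongest. TGF-beta and BMP components stood at 17 of 36, with the ubiquitin ligase Smurf1 (9.50), Smad2 (9.13), the receptor Acvr2b (8.50) and Smad1 (7.62) first. In Wnt signalling the count was 23 of 49, with Csnk1a1 (10.3), the feedback inhibitor Axin2 (9.01), Dvl3 (8.71) and Apc (8.49). Hedgehog components stood at 9 of 18, with Gli2 (7.28), Cdon (6.22), Smo (6.21) and Disp1 (5.69). Growth factor receptors stood at 20 of 35, where Ephb3 (11.6) was followed by Pdgfra (8.77), Ddr1 (8.24) and Epha7 (7.62). Of 16 genes that the study singles out, 3 had a fibroblast-only promoter peak: Prrx1, Map2 (8.01), a neuronal microtubule protein, and Tjp1 (6.90), a tight junction protein. Another 5, Pparg, Myc, Myh9, Sox9 and Ebf2, had shared promoter peaks only.

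Hep3B, which the rule did not use, gave a further view of these genes. Mouse and human genes were matched by identical symbol, and 48.8% of the 15748 matched genes had a Hep3B promoter peak. Among genes with a fibroblast-only and no shared promoter peak, 3803 of 6528 (58.3%, 57.1 to 59.4) had one, against 3385 of 4322 genes with a shared peak (78.3%, 77.1 to 79.5). The odds ratio was 0.386 (0.354 to 0.422; two-sided Fisher's exact p = 3.50e-107), and 0.524 within strata of MEF summit strength. Genes with a liver but no MEF promoter peak were at 21.2% (146 of 690), and those with no promoter peak in either mouse list at 8.44%. Strength in MEFs tracked presence in Hep3B: among all 7097 matched genes with a fibroblast-only promoter peak, those with a shared peak included (59.9% with a Hep3B peak), the share over quartiles of strength from weak to strong was 36.8%, 45.0%, 63.3% and 79.1% (strongest against weakest, odds ratio 6.52, 5.59 to 7.60; two-sided Fisher's exact p = 4.39e-136). The FLAG antibody and the overexpression were common to MEFs and Hep3B, and their part in this overlap was not tested.

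**Figure D5:**
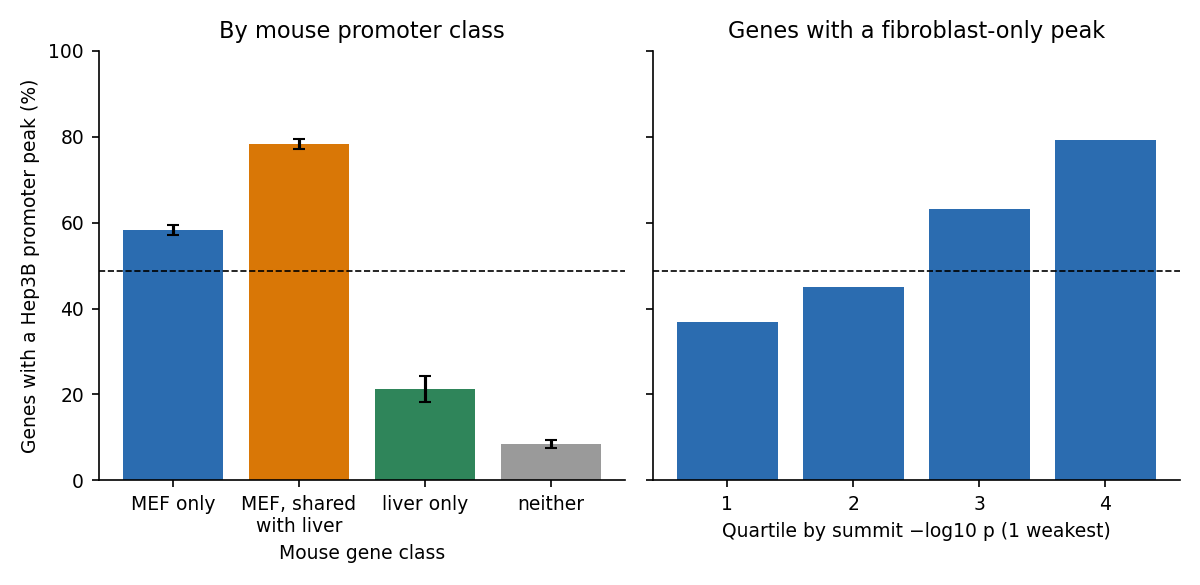
Share of matched genes with a promoter peak in Hep3B (y axis, %) by mouse promoter class (left; error bars, 95% Wilson intervals) and by quartile of summit strength among genes with a fibroblast-only promoter peak (right), with the 48.8% of all matched genes as a dashed line. The fibroblast-only class (58.3%) lies between the shared class (78.3%) and the liver-only class (21.2%), and over the quartiles, which include genes that also have a shared peak, the share climbs from 36.8% to 79.1%.

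The gene lists differed in this respect. Of the mesenchymal transcription factors with a fibroblast-only promoter peak, 5 of 25 had a Hep3B promoter peak (Foxc1, Msx1, Osr2, Runx1 and Snai1). The count was 4 of 25 for Hox genes, 6 of 18 for neuronal regulators, 1 of 16 for collagens and 10 of 25 for extracellular matrix genes. It was 32 of 40 for cell cycle genes, 12 of 13 for ciliary genes, 16 of 21 for proteasome subunits, 35 of 50 for ribosomal protein genes and 16 of 16 for Hippo-YAP components. Over all matched genes of each list, Hep3B promoter peaks stood at 6 of 30 for mesenchymal factors and 4 of 39 for Hox genes. They stood at 7 of 36 for neuronal regulators, 3 of 43 for collagens and 13 of 36 for matrix genes. Cell cycle genes stood at 38 of 50, ciliary genes at 18 of 22 and proteasome subunits at 32 of 39. Ribosomal protein genes stood at 56 of 77 and Hippo-YAP components at 25 of 26. The differences were thus seen over the whole lists as well. Histone and most zinc finger genes carry other symbols in human and could not be matched.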

How the data were processed

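PROX1 CUT&RUN peak lists of MEFs, liver and Hep3B were used. Per their methods the authors aligned reads of 22 samples with Bowtie2 2.4.2 to mm10 or hg38 and called consensus peaks over replicates with Genrich 0.6.1. The stated command names no control, so how IgG entered the lists is not given in the sources used here. The authors' caller wrote a score (1000 times area over width, with a ceiling of 1000), which was not used here. It also wrote the deposited signal, which is the area summed over a peak, and −log10 p and −log10 q at the summit. The deposited offset gave the summit position. None was normalized between lists.

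Start sites came from GENCODE M21 (mm10) and 44 (hg38), and sequence from RefSeq GRCm38.p6, on which no peak ended beyond a chromosome. Target genes had a summit within 1000 bp of the TSS of a protein-coding transcript. Motifs were scanned in 201 bp and 6-mers in 51 bp around the summit. The PROX1 consensus, the motifs and the 27 gene lists were written from general knowledge, and the consensus is not the authors' matrix. Fisher's exact tests, Woolf intervals for odds ratios, Wilson intervals for shares, Benjamini-Hochberg adjustment and Mantel-Haenszel ratios over 10 strata used SciPy 1.17.1 in Python 3.11.15, with functions tested on simulated data. Genes were named by rule: the 10 strongest and 3 widest peaks, up to 4 per list by strength, genes the study names, those at each threshold and those with most peaks. Further list members and 6-mers were named after their values were seen. Some list members that the rule names are not reported here. The regions and lists were chosen with earlier results of these data known. Depth per sample is unknown.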

Additional observations from a re-analysis of the deposited data

How the results depend on the processing

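Over 67 alternative values of the 7 main results, 57 stayed on their side of the threshold or within 1.5 times the reported value. No odds ratio of the main results reversed, and for counts only the size was compared. As reported, 11 called 6-mers were more and 17 less frequent. With a promoter window of 2000 bp or windows of 50 bp to each side, most called 6-mers were more frequent. The CpG odds ratio ranged from 0.610 to 0.890, the non-coding odds ratio from 1.26 to 1.84 and the Hep3B odds ratio from 0.372 to 0.524, all still called. The number of regions rose from 10178 to 13551 when sharing required summits within 100 bp. It fell to 6113 with a MEF area of at least 500 and to 5030 with q below 0.001, a setting added after seeing the data. That last setting also took the list genes reached from 706 to 408. Beside the lists already given, Hedgehog components then stood at 1, Hippo-YAP at 9, Notch at 7, TGF-beta and BMP at 8, Wnt at 11, growth factor receptors at 9, actin and serum response at 13, ribosomal protein at 32, proteasome at 13, histone at 19, NuRD corepressor at 12, zinc finger at 133, protocadherin at 2 and olfactory receptor genes at 0. Olfactory receptor genes stood at 6 with a promoter window of 2000 bp and 1 with 500 bp. The 28 called 6-mers became 13 with a promoter window of 500 bp (3 more, 10 less frequent), 153 with 2000 bp (91 and 62), 10 with protein-coding start sites (2 and 8), 147 with windows of 50 bp to each side (84 and 63) and 15 within GC strata. With the raised area or q below 0.001 the count was 0 by Fisher's exact test (119 and 122 words at an unadjusted p below 0.05), and it was 21 (3 and 18) when sharing meant summits within 100 bp. The 11 called motifs ranged from 8 to 14. The CCAAT ratio of 0.932, not called as reported, was called lower within GC strata (0.911) and with a promoter window of 2000 bp (0.925). It turned to 1.03 with summits within 100 bp, 1.02 with the raised area, 1.11 with q below 0.001 and 1.22 within strength strata. The ETS ratio of 0.840 turned to 1.03 and 1.02 with the raised area and q below 0.001. The cause was not tested.

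No paired analysis was possible because each list pools the replicates of its group, and for the same reason no replicate was left out. Counts of peaks and widths depend on depth and on the caller's floor, neither of which was set equal between liver and MEFs.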
